A study of Homo sapiens with 24 samples.

Results

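The proteasome subunit genes were taken as the protein-coding rows whose symbol is PSMA, PSMB, PSMC, PSMD or PSME followed by a number, leaving out PSMB8 and PSMB9. The rule found 42 of the 48162 rows in each expression table. They carry 41 symbols, since PSMA1 is listed under 2 gene identifiers. Of the 42 rows, 18 are core subunits (PSMA and PSMB) and 24 are regulatory subunits (PSMC, PSMD and PSME).

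RNA was sequenced from 24 libraries of 2 pancreas cell lines, hTERT-HPNE (HPNE, duct-derived cells immortalised with telomerase) and HPDE-H6c7 (HPDE, a duct epithelial line immortalised with papillomavirus genes), both labelled normal pancreas cells and both cultured in keratinocyte medium without serum. Each line had 4 groups of 3 biological replicates, and every well was treated for 24 hours. Untreated wells received fresh medium without serum. Extracellular vesicle (EV) wells received 1E10 EVs each, isolated from PANC-1 (a line of pancreatic carcinoma) or PPCL-68 cells, both called pancreas cancer cells in the study's design. The residual medium wells received what was left of the culture medium once the EVs had been isolated, and served as the negative control. The study asked how EVs of pancreas cancer cells act on normal pancreas cells. Each line is a single established line, so the replicates measure the spread between wells of that line.

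The proteasome is the protease that degrades proteins tagged with ubiquitin. Its core is a barrel of rings: alpha subunits (PSMA) form the outer rings and gate the entrance, and beta subunits (PSMB) form the inner rings, where PSMB5, PSMB6 and PSMB7 hold the catalytic sites. A regulatory particle caps the barrel. Its base holds a ring of ATPases (PSMC) that unfold substrates and non-ATPase subunits (PSMD1, PSMD2, PSMD4), of which PSMD2 and PSMD4 bind ubiquitin or its carriers. Its lid holds PSMD14, which cuts ubiquitin off the substrate. Other caps exist: PSME1 and PSME2 form PA28, which interferon induces together with the inducible catalytic subunit PSMB10, PSME3 forms a nuclear cap and PSME4 forms PA200. PSMD5, PSMD9 and PSMD10 are chaperones that assemble the base. The subunit genes are known for shared control by the transcription factor NFE2L1, which binds antioxidant response elements.

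The promoters of the subunit genes are shown because many of the genes changed in comparisons where NFE2L1 changed, as described further on. The directions mostly differed. Relative to residual medium in HPDE, NFE2L1 rose with both EVs while most subunit genes fell. In HPNE it rose with PPCL-68 EVs, where 15 members fell and 6 rose, and did not pass with PANC-1 EVs, where 16 fell. RefSeq promoter sequence (GRCh38.p14, the 250 bases before the annotated start) was matched for 36 of the 41 symbols. The core of the antioxidant response element was searched as TGACNNNGC on both strands. It was found in 8 of the 36 subunit promoters (22.2%) and in 3013 of 27305 promoters of all genes (11.0%). By class, 1 of 13 core promoters and 7 of 23 regulatory promoters held it. CCAAT, the letters bound by NF-Y, was found on either strand in 16 of 36 (44.4%), against 33.0% of all promoters. GAANNTTC, the core of a heat shock element, was in none of the 36 and in 5.85% of all. In the following lines the capitals mark the TGACNNNGC match, and each sequence is written 5′ to 3′ along the strand of its gene. PSMB3 is the only core gene with a match among the 13 core promoters searched. Those of PSMA7, PSMB1, PSMB6 and PSMB7 were not among them. PSMD3 is the lid gene whose fall with EVs was among the largest in both lines, PSMD12 is another lid gene, and PSME2 is the PA28 gene that rose in HPNE.
PSMB3, chr17:38752617-38752665, plus strand: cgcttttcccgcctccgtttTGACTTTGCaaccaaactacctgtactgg
PSMD3, chr17:39980750-39980798, plus strand: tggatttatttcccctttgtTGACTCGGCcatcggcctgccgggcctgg
PSMD12, chr17:67366714-67366762, minus strand: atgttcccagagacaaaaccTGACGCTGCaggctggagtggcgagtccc
PSME2, chr14:24146757-24146805, minus strand: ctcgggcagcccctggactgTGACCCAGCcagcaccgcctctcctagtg
The matches begin 104 bases before the start in PSMB3, 37 in PSMD3, 165 in PSMD12 and 175 in PSME2. None of these 4 stretches of 49 bases holds CCAAT on either strand. Over the whole 250 bases PSMB3 has 2 CCAAT matches and PSMD3 has 1, while PSMD12 and PSME2 have none. PSMD14, which rose in both lines with PPCL-68 EVs relative to untreated cells, has no TGACNNNGC in its 250 bases. Its promoter is shown with its CCAAT matches in capitals, 1 on each strand, which overlap.
PSMD14, chr2:161308175-161308424, plus strand: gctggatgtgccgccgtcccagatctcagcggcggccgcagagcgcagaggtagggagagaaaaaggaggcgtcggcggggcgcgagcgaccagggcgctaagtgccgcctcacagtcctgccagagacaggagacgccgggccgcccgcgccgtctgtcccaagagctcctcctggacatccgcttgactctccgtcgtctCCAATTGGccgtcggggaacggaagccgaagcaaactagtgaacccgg
A match describes these letters only, and binding was not measured.

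Each library held 29209142 to 46490312 reads assigned to genes, recovered from the FPKM values (fragments per length of gene and per depth of library). Duct epithelium markers (EPCAM, KRT19, KRT7, KRT8, CDH1, KRT5) summed to 1609 to 4492 FPKM in HPDE and to 1.16 to 8.25 FPKM in HPNE, where 1 of the 6 averaged at least 1 FPKM. Mesenchymal markers including VIM, COL1A1 and FN1 summed to 8661 to 12674 FPKM in HPNE and to 81.4 to 153 FPKM in HPDE. In HPNE, 1 library of each group stood apart from the others over all genes, at 2.05 to 3.31 times their distance from each other. These were untreated 3, residual medium 3, PANC-1 EV 1 and PPCL-68 EV 1. The same ratio was 1.08 to 1.24 in HPDE.

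Most subunit genes were well expressed in both lines. PSMA7, an alpha ring subunit, had the highest mean level over the 12 libraries of each line, at 148 ± 27.3 FPKM for HPNE and 319 ± 40.3 FPKM for HPDE (SD, n = 12). Next in HPNE were PSMB7 (124 ± 15.6 FPKM) and PSMD2 (118 ± 42.7 FPKM), and in HPDE they were PSMD2 (209 ± 38.4 FPKM) and PSMB7 (181 ± 17.9 FPKM). These SDs span all treatment groups of a line. The order of PSMB7 and PSMD2 in HPNE changed with treatment, at 108 against 84.5 FPKM in untreated cells and 120 against 175 FPKM in residual medium. The 3 catalytic subunits lay near each other for PSMB5 (80.9 FPKM in HPNE, 96.2 in HPDE) and PSMB6 (62.9 and 87.2), below PSMB7. The inducible PSMB10 was among the lowest, at 6.81 ± 2.95 FPKM in HPNE and 4.86 ± 0.747 FPKM in HPDE.

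Several constitutive subunits and a chaperone of the base were listed near 0. PSMA6 had 17 to 100 reads per library, PSMA2 had 35 to 159, PSMD9 had 49 to 161, and the better-covered row of PSMA1 had 74 to 248. The second PSMA1 row and PSMA8, the testis alpha subunit, had 0 reads in all 24 libraries, and PSMB11, the thymic beta subunit, had at most 3. PSMA6, PSMA2 and PSMD9 each lie almost wholly (99.7% to 100% of their span) within another protein-coding row on the same strand, and both PSMA1 rows overlap each other. Those covering rows are KIAA0391, DKFZP686D09174 and RP11-87C12.2, and they had at most 15, 3 and 2 reads. How reads on 2 genes were assigned is not given in the sources used here. The part of such overlaps in these low values was not tested, and the low values are therefore not read as low expression. PSMD2 lies in the span of EIF2B5, and PSMB10 shares 58.6% of its span with a same-strand coding row, yet both had reads in every library. The library kit was non-directional per the labels and does not mark strand, so reads of PSMC5 and FTSJ3 (58.8% of the PSMC5 span), PSME3 and BECN1 (46.3%) and PSME2 and RNF31 (21.1%) on opposite strands cannot be told apart where they overlap. The same holds for PSMD5 and RP11-27I1.2 (66.1%, 190 to 1115 reads) and for PSMC2 and SLC26A5 (66.3%, at most 11 reads). It also holds for PSMA3 with C14orf37 (100%, 10 to 185 reads) and RP11-349A22.5 (24.5%, 278 to 1148 reads).

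A mean of at least 1 FPKM over the libraries of a line was required for testing. In HPNE 37 of the 42 rows passed, 13 core and 24 regulatory. In HPDE 36 passed, 13 core and 23 regulatory, since PSMD9 fell below. PSMA2, PSMA6, PSMA8, PSMB11 and the second PSMA1 row passed in neither line. Leaving PSMA1 and PSMD9 aside as well, 35 members spanned 6.81 to 148 FPKM in HPNE with a median of 40.2 FPKM. In HPDE they spanned 4.86 to 319 FPKM with a median of 84.8 FPKM. The median core level was above the median regulatory level in each line, 57.4 against 37.7 FPKM in HPNE and 91.6 against 58.7 FPKM in HPDE. The order of the members was similar in the untreated lines (Pearson's r = 0.905, Spearman's rho = 0.932 over 35 members, which share libraries and are no replicates).

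**Figure D1:**
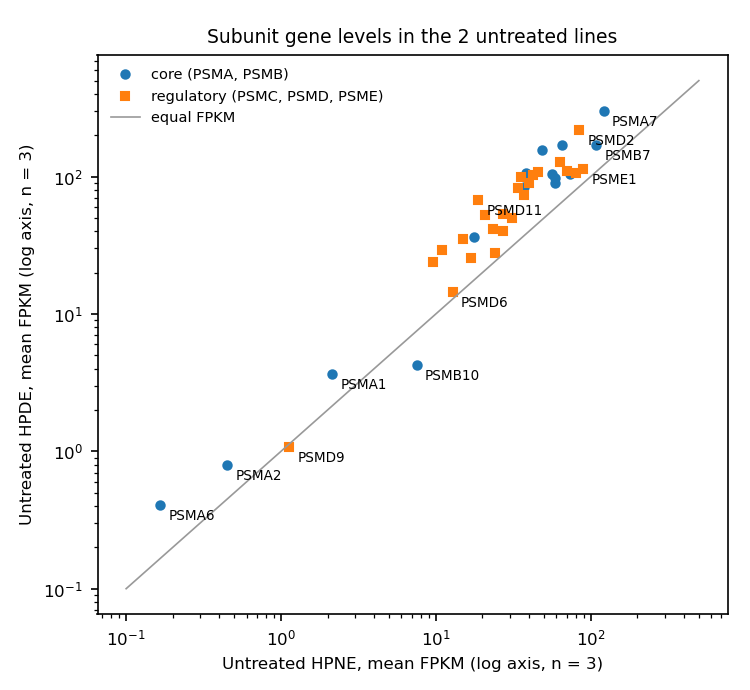
Mean FPKM of each subunit gene in untreated HPNE (x axis) and untreated HPDE (y axis), both on log axes, n = 3 libraries each, with core subunits as circles, regulatory subunits as squares and the line of equal FPKM. Nearly all points lie above the line, PSMB10 lies below it, and PSMA1, PSMA2, PSMA6 and PSMD9 lie apart at low values.

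Untreated HPDE cells had more subunit mRNA per total than untreated HPNE cells. The subunit genes took 0.638% to 0.652% of the assigned reads in untreated HPDE libraries and 0.300% to 0.318% in untreated HPNE libraries. PSMD11, a lid subunit, measured 18.6, 17.8 and 19.6 FPKM in HPNE and 69.3, 65.5 and 66.8 FPKM in HPDE. The HPDE libraries were all higher, with a log2 difference of 1.79 ± 0.0872 (SE, adjusted p = 9.5e-14). PSMA3 (1.65) and PSMD3 (1.45) followed.

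With all 24 libraries in one fit, 36 of 37 members differed between the untreated lines, 35 higher in HPDE and 1 lower, where 83.8% of all genes tested differed (56% higher, 27.7% lower). The median log2 difference was 0.98 for the members and 0.38 for all genes. Rescaling the libraries by median-of-ratios size factors moved the all-gene median to 0.07 and the members' median to 0.62, with 29 members higher and 3 lower. The member lower in HPDE was PSMB10, at 4.35, 4.30 and 4.01 FPKM against 8.91, 8.77 and 4.90 FPKM in HPNE. Its log2 difference was -0.67 (SE 0.252, adjusted p = 0.0189), a call that was lost without untreated HPNE replicate 1 or replicate 2. PSMD9 did not pass the test. The lines differ in origin and in how they were immortalised, and the 2 cannot be told apart here.

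In HPDE, treatment with either kind of EV lowered most subunit mRNAs relative to residual medium. The members took 0.706% to 0.718% of reads in residual medium, 0.542% to 0.569% with PANC-1 EVs and 0.517% to 0.545% with PPCL-68 EVs, so the groups with EVs did not overlap with residual medium. With PANC-1 EVs, 31 of 36 members passed the limma test, 29 lower and 2 higher, where 63.3% of all genes passed (28.2% higher, 35.1% lower). The median log2 difference was -0.34 for the members and -0.04 for all genes. With PPCL-68 EVs, 30 of 36 passed, 27 lower and 3 higher, where 67.7% of all genes passed (31.3% higher, 36.4% lower), with medians of -0.44 and -0.03. The comparisons share the residual medium libraries. These shares of all genes also stand beside the counts by class that follow for HPDE.

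The beta ring fell as a whole in HPDE. All 7 constitutive beta subunits were lower with PANC-1 EVs (log2 differences of -0.83 to -0.24) and all 7 with PPCL-68 EVs (-0.72 to -0.32). PSMB2, a non-catalytic beta subunit, measured 120, 121 and 114 FPKM in residual medium, 62.9, 71.0 and 65.2 FPKM with PANC-1 EVs, and 80.7, 73.9 and 72.5 FPKM with PPCL-68 EVs. All EV libraries lay below all residual medium libraries, and PSMB2 had the largest fall of any member with PANC-1 EVs, to 0.561 of residual medium (log2 difference -0.83 ± 0.0514, SE, adjusted p = 7.1e-09).

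The catalytic subunits moved by unequal amounts. PSMB5, the chymotrypsin-like subunit, measured 126, 118 and 117 FPKM in residual medium, 77.4, 79.6 and 85.5 FPKM with PANC-1 EVs, and 80.1, 79.5 and 77.5 FPKM with PPCL-68 EVs. Its log2 differences were -0.57 and -0.60. PSMB6, the caspase-like subunit, fell by 0.38 and 0.44 on the log2 scale and PSMB7, the trypsin-like subunit, fell by 0.24 and 0.32. PSMB1, another non-catalytic beta subunit, went from 115 ± 2.36 FPKM in residual medium to 69.7 ± 6.23 FPKM with PPCL-68 EVs (SD, n = 3), a log2 difference of -0.72. The inducible PSMB10, which takes the place of PSMB7 in the immunoproteasome, did not pass in either comparison (-0.02 and 0.04), and its libraries overlapped at 3.80 to 6.03 FPKM.

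The alpha ring was lower in 5 of 5 tested rows with PANC-1 EVs and in 3 of 5 with PPCL-68 EVs, where PSMA5 and PSMA7 did not pass. PSMA7, the most abundant member, measured 393, 343 and 357 FPKM in residual medium, 262, 275 and 290 FPKM with PANC-1 EVs and 322, 371 and 320 FPKM with PPCL-68 EVs. The PANC-1 EV libraries were lower than all others of these 3 groups, and the PPCL-68 EV libraries overlapped with residual medium.

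In the regulatory particle of HPDE, all 6 base ATPases and all 3 base non-ATPases fell with each EV. PSMD1, the largest base subunit and a scaffold, measured 74.4, 75.5 and 73.7 FPKM in residual medium, 47.9, 48.3 and 45.3 FPKM with PANC-1 EVs and 40.8, 37.2 and 40.5 FPKM with PPCL-68 EVs. The 3 groups did not overlap, and the log2 differences were -0.65 (adjusted p = 2.4e-08) and -0.90 (SE 0.0452 for both, adjusted p = 4.7e-10). The latter was the largest fall of any member with PPCL-68 EVs.

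The lid split. With PANC-1 EVs 6 of 8 lid genes fell and 1 rose, and with PPCL-68 EVs 5 fell and 2 rose. PSMD3, a lid scaffold subunit, went from 108, 107 and 106 FPKM in residual medium to 67.5, 66.7 and 72.1 FPKM with PANC-1 EVs and 64.9, 65.9 and 63.0 FPKM with PPCL-68 EVs (log2 differences of -0.63 and -0.72). The pair that carries the deubiquitinating site did not follow it. PSMD14 measured 31.9, 34.0 and 32.7 FPKM in residual medium and 41.4, 39.7 and 37.0 FPKM with PPCL-68 EVs, a rise of 0.25 (adjusted p = 0.00028), while with PANC-1 EVs it did not pass (-0.01). PSMD7, the partner of PSMD14, rose by 0.13 with PANC-1 EVs and by 0.24 with PPCL-68 EVs.

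Among the caps and chaperones, PSME4, the PA200 activator, was the other riser with PANC-1 EVs, from 22.9 ± 0.722 to 26.8 ± 1.1 FPKM (SD, n = 3), a log2 difference of 0.22. With PPCL-68 EVs it fell by 0.18. The PA28 genes PSME1 and PSME2 did not pass in either comparison, with log2 differences of -0.08 to 0.07. The base chaperone PSMD10 fell by 0.37 with PANC-1 EVs and rose by 0.15 with PPCL-68 EVs. The rise of PSMD10 was not called without residual medium replicate 1, without PPCL-68 EV replicate 1 or without PPCL-68 EV replicate 3, and that of PSMD7 with PANC-1 EVs was not called without PANC-1 EV replicate 2 or residual medium replicate 1.

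**Figure D2:**
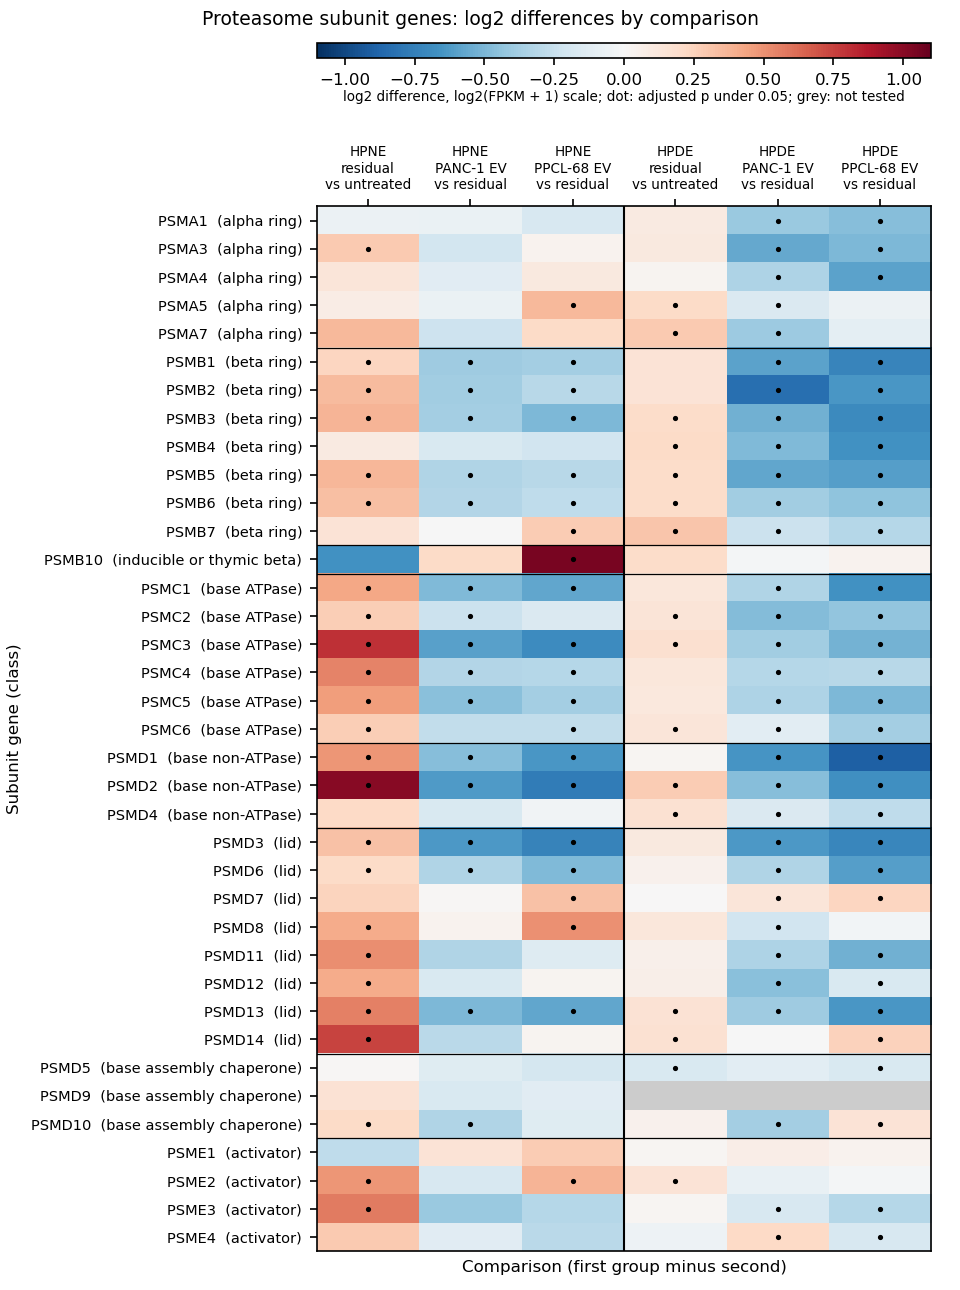
Log2 difference on the log2(FPKM + 1) scale of each tested subunit gene (rows, grouped by class) in 6 comparisons (columns, first group minus second), with a dot where the limma adjusted p was under 0.05 and grey where the gene was not tested. The HPDE columns for EVs against residual medium are blue for 29 and 27 dotted members, and the HPNE column for residual medium against untreated is red for 24.

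Other measures moved with the EVs in HPDE. The summed duct markers were 3727 to 4257 FPKM in residual medium, 2203 to 2492 FPKM with PANC-1 EVs and 1609 to 1682 FPKM with PPCL-68 EVs. The share of reads on mitochondrial genes was 0.929% to 1.04% in residual medium, 0.362% to 0.635% with PANC-1 EVs and 0.569% to 0.775% with PPCL-68 EVs. Their part in the subunit changes was not tested. In these bulk cultures fewer cells with high levels and less RNA per cell cannot be told apart.

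Most subunit genes in HPDE were also lower with EVs than in untreated cells. With PANC-1 EVs 27 of 36 members passed, 24 lower and 3 higher (60.6% of all genes, 26.3% higher and 34.4% lower), and the median log2 difference was -0.22. With PPCL-68 EVs 30 passed, 24 lower and 6 higher (66.3% of all genes, 30.1% higher and 36.1% lower), with a median of -0.32. PSMB2 (-0.68), PSMD1 (-0.63) and PSMD3 (-0.52) led the falls with PANC-1 EVs, and PSMD1 (-0.88), PSMD3 (-0.61) and PSMB1 (-0.58) with PPCL-68 EVs. The largest rise was that of PSMD14 with PPCL-68 EVs, 0.42, from 30.3, 28.3 and 29.0 FPKM in untreated cells. PSMD7 (0.24) and PSMD10 (0.20) also rose with PPCL-68 EVs, and PSME4, PSMD14 and PSMD7 rose by 0.14 to 0.16 with PANC-1 EVs. The last of these calls was lost without PANC-1 EV replicate 2.

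Between the EV groups of HPDE, 20 of 36 members passed, a share near the 50.1% of all genes. Of the members 14 were higher with PANC-1 than with PPCL-68 EVs and 6 were lower (25.2% and 24.9% of all genes). PSME4 (0.40), the ATPase PSMC1 (0.34) and the lid subunit PSMD6 (0.28) were higher with PANC-1 EVs. PSMC1 measured 84.5, 90.8 and 88.4 FPKM with PANC-1 EVs and 71.1, 70.7 and 66.5 FPKM with PPCL-68 EVs. PSMD10 (-0.52), PSMD12 (-0.30) and PSMA7 (-0.29) were lower with PANC-1 EVs. PSMD10 measured 22.0, 22.9 and 21.4 FPKM with PANC-1 EVs against 33.3, 30.7 and 32.2 FPKM with PPCL-68 EVs, and these libraries lay on either side of residual medium (27.4, 29.9 and 29.2 FPKM).

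Residual medium itself raised subunit mRNAs relative to untreated cells in both lines. In HPNE 24 of 37 members rose and none fell, where 43.9% of all genes passed (18.7% higher, 25.2% lower), and the median log2 difference was 0.32 for the members and -0.05 for all genes. All 6 base ATPases, 7 of 8 lid genes and 5 of 7 beta genes rose, against 1 of 5 tested alpha rows. PSMD2, the base subunit that docks ubiquitin carriers (hg19, chr3:184016497-184026842), measured 83.0, 78.2 and 92.2 FPKM in untreated cells and 204, 202 and 119 FPKM in residual medium. All residual medium libraries were higher, 2 of them far above the third, and the log2 difference was 1.00 ± 0.205 (SE, adjusted p = 0.0035).

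PSMC3, a base ATPase, showed the same arrangement, at 61.1, 61.3 and 69.0 FPKM in untreated cells and 129, 125 and 86.6 FPKM in residual medium (log2 difference 0.80). PSMD14 rose by 0.75, from 10.8, 10.1 and 12 FPKM to 20.2, 21.9 and 15.4 FPKM. Of the catalytic subunits PSMB5 rose by 0.36 and PSMB6 by 0.33, calls that were both lost without replicate 1 or 2 of either group, and PSMB7 (0.15) did not pass. The inducible PSMB10 (-0.67, adjusted p = 0.0985) and PSME1 (-0.28, adjusted p = 0.17) did not pass and PSME2 rose by 0.49. Without the 4 libraries that stood apart, PSMB10 (-1.20, adjusted p = 1.4e-05) and PSME1 (-0.47, adjusted p = 1.7e-05) were called lower and PSMB7 (0.20, adjusted p = 0.0037) higher.

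Residual medium replicate 3 was the lowest of its group for 32 of the 37 tested members in HPNE, 22 of 24 regulatory and 10 of 13 core. The count of 24 became 12 without residual medium replicate 1 or replicate 2, 13 without untreated replicate 1 and 14 without untreated replicate 2, all of them rises. Without the 4 HPNE libraries that stood apart, 32 rose and 3 fell, and PSMD2 rose by 1.32. Those libraries were set aside because they were apart, which narrows the spread by construction. The mitochondrial share of reads was 1.13% to 2.63% in untreated HPNE and 0.746% to 0.982% in residual medium, and its part in the rise was not tested.

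In HPDE residual medium raised 15 of 36 members and lowered 1, where 20% of all genes passed (9.93% higher, 10.1% lower), with a median of 0.13 for the members and -0.01 for all genes. PSMB7 (0.30, from 167, 165 and 177 to 207, 213 and 209 FPKM), PSMA7 (0.28) and PSMD2 (0.28) rose most. The catalytic subunits PSMB5 and PSMB6 rose by 0.20 each, PSME2 rose by 0.15, and PSMB10 (0.20) and PSME1 (0.03) did not pass. The base chaperone PSMD5 was the member that fell (-0.17). The count of 16 was 6 to 10 when any 1 of the 6 libraries was left out: 8, 6 and 9 without untreated replicates 1, 2 and 3, and 8, 10 and 9 without residual medium replicates 1, 2 and 3. The call of PSMB6 was lost in all 6 of these fits, that of PSME2 in 5 and that of PSMD5 in 4.

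**Figure D3:**
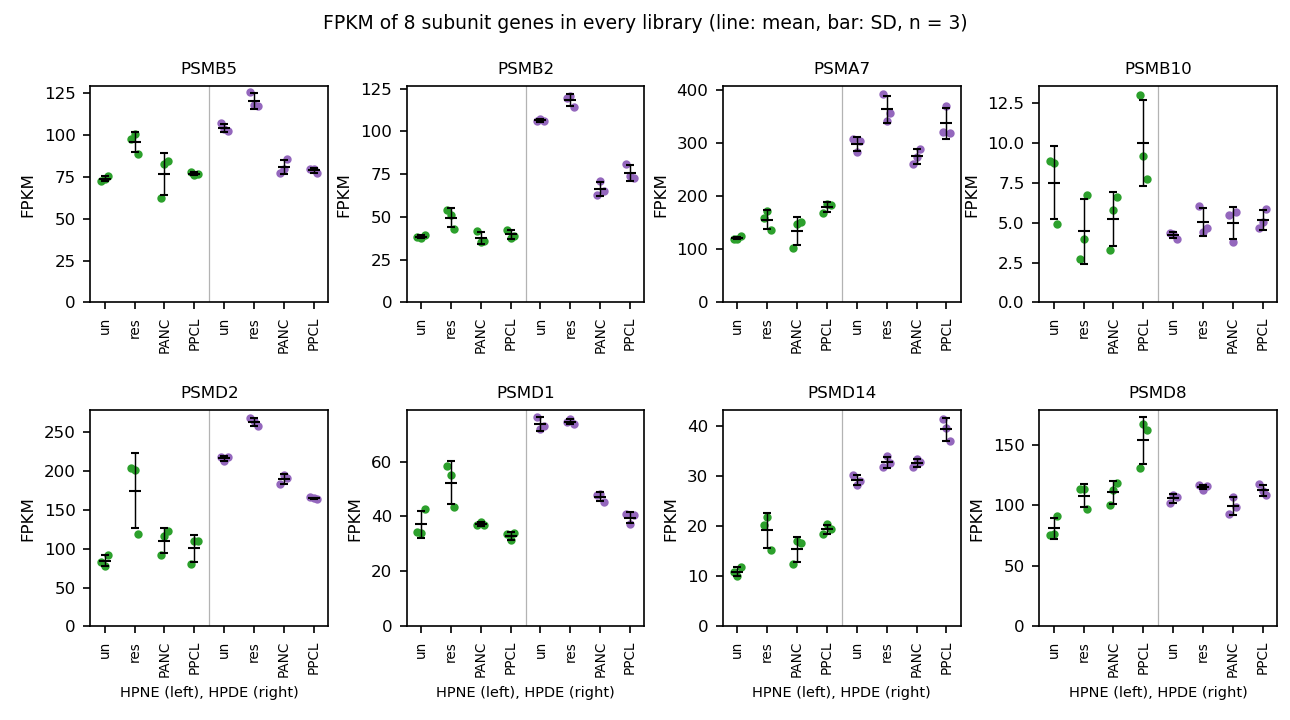
FPKM (y axis, from 0) of 8 subunit genes in every library, HPNE on the left of each panel and HPDE on the right, with points for libraries and the mean and SD of each group (n = 3; un, untreated; res, residual medium; PANC and PPCL, EVs of each source). PSMD2 in HPNE residual medium shows libraries at 204, 202 and 119 FPKM, and PSMD1 in HPDE lies at 73.7 to 75.5 FPKM in residual medium and at 37.2 to 48.3 FPKM with EVs.

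In HPNE many subunit genes were lower with EVs than in residual medium. With PANC-1 EVs 16 of 37 members were lower than in residual medium and none was higher, where 24.2% of all genes passed (13.9% higher, 10.3% lower). The median log2 difference was -0.27 for the members and 0.02 for all genes. The members called lower were 5 of 6 base ATPases, 2 of 3 base non-ATPases, 5 of 7 beta genes, 3 of 8 lid genes and 1 base chaperone. PSMD3 measured 46.8, 46.2 and 41.9 FPKM in residual medium and 28.8, 29.7 and 27.5 FPKM with PANC-1 EVs (log2 difference -0.63 ± 0.0768, SE, adjusted p = 0.00056). The groups did not overlap. PSMD2 (-0.63) was also called, though its libraries overlapped between the groups (175 ± 48.1 FPKM in residual medium and 111 ± 16.2 FPKM with PANC-1 EVs, SD, n = 3). PSMC3 (-0.60) and the lid subunit PSMD13 (-0.49) came next among the members whose groups did not overlap.

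The catalytic subunits PSMB5 (-0.33, adjusted p = 0.0484) and PSMB6 (-0.33) were lower, and PSMB7 was level (-0.00062, adjusted p = 0.997). PSMB10 (0.21), PSME1 (0.15) and PSME2 (-0.18) did not pass. Without the 4 libraries that stood apart, PSMB10 was called higher (0.74, adjusted p = 0.00071) and PSME2 lower (-0.22, adjusted p = 0.024). That choice of libraries narrows the spread by construction, which lowers such p-values. The count of 16 became 7 without residual medium replicate 1, 6 without residual medium replicate 2 and 10 without PANC-1 EV replicate 1 or replicate 2. It became 5 when only the 6 libraries compared were fitted. Without the 4 libraries that stood apart, 29 members were lower and 1 was higher. The call of PSMB5 was lost in 10 of the 12 fits that left out 1 library, all but those without PANC-1 EV replicate 3 or residual medium replicate 3. That of PSMB6 was lost without replicate 1 or 2 of either group.

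With PPCL-68 EVs in HPNE, 21 of 37 members differed from residual medium, 15 lower and 6 higher, where 39.9% of all genes passed (20.3% higher, 19.7% lower). The median log2 difference was -0.19 for the members and 0.00 for all genes. The falls again included PSMD2 (-0.77), PSMD3 (-0.74) and PSMC3 (-0.69), and PSMB5 (-0.31) and PSMB6 (-0.28). PSMD2 went from 204, 202 and 119 FPKM to 81.0, 110 and 110 FPKM, and its call was lost without residual medium replicate 1 or replicate 2. The calls of PSMB5 and PSMB6 were also lost without either of these, and without PPCL-68 EV replicate 2 or replicate 3. That of PSMB5 was lost as well without PPCL-68 EV replicate 1 or any untreated library.

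The rises with PPCL-68 EVs in HPNE were led by PSMB10 (hg19, chr16:67968405-67970990). It measured 2.72, 3.97 and 6.72 FPKM in residual medium and 13.0, 9.21 and 7.77 FPKM with PPCL-68 EVs, a log2 difference of 1.05 ± 0.309 (SE, adjusted p = 0.0199). The groups did not overlap, but the call was lost without residual medium replicate 1 or replicate 2 or PPCL-68 EV replicate 1. PSMD8, a lid subunit, rose by 0.50, from 113, 113 and 96.7 FPKM to 131, 167 and 162 FPKM. PSME2 rose by 0.37, PSMB7 rose by 0.28 and PSME1 (0.28, adjusted p = 0.189) did not pass. Without the 4 libraries that stood apart the difference of PSME1 was smaller (0.20, limma adjusted p = 0.0059). Leaving those libraries out narrows the spread by construction, so this lower p-value adds no support. The call of PSME2 was lost without residual medium replicate 3 or PPCL-68 EV replicate 1 or replicate 2, and that of PSMB7 without residual medium replicate 1 or PPCL-68 EV replicate 1 or replicate 2. The count of 21 became 12 without residual medium replicate 1, and 13 without residual medium replicate 2 or PPCL-68 EV replicate 2. It was 31 without the 4 libraries that stood apart (23 lower, 8 higher).

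Relative to untreated HPNE cells, PANC-1 EVs changed few subunit genes: 3 of 37, where 21.1% of all genes passed (9.61% higher, 11.5% lower). PSMD14 (0.45) and PSMD8 (0.45) rose and PSMD3 (-0.31) fell. The count was 0 without untreated replicate 1, untreated replicate 2 or PANC-1 EV replicate 3 (each with 4 members at an unadjusted limma p under 0.05), 1 without PANC-1 EV replicate 2, 7 without residual medium replicate 3 and 21 without the 4 libraries that stood apart. With PPCL-68 EVs 13 passed, 11 higher and 2 lower (42.5% of all genes, 18.7% higher and 23.8% lower), and 27 without the 4 libraries that stood apart. PSMD8 went from 75.7, 76.1 and 90.8 FPKM in untreated cells to 131, 167 and 162 FPKM (0.91 ± 0.121, SE, adjusted p = 0.00021). PSME2 went from 29.8, 27.3 and 25.0 FPKM to 53.7, 51.7 and 45.9 FPKM (0.86) and PSMD14 rose by 0.78. The falls were PSMD3 (-0.41) and PSMD6 (-0.27), the latter lost without untreated replicate 1 or PPCL-68 EV replicate 2. By class, 4 of 5 tested alpha rows and 5 of 8 lid genes rose, and none of the 6 base ATPases passed. The alpha row not called was the low row of PSMA1. The summed mesenchymal markers were 12091 to 12674 FPKM in untreated HPNE and 8661 to 10628 FPKM with PPCL-68 EVs, and the mitochondrial share was 1.13% to 2.63% against 0.891% to 1.09%. With PANC-1 EVs they were 10526 to 12459 FPKM and 0.810% to 1.57%, overlapping with untreated cells. Their part in these changes was not tested.

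Between the EV groups of HPNE, 2 of 37 members passed and both were lower with PANC-1 EVs, where 5.47% of all genes passed (3.22% higher, 2.25% lower). PSME2 measured 31.0, 37.6 and 33.9 FPKM with PANC-1 EVs and 53.7, 51.7 and 45.9 FPKM with PPCL-68 EVs (-0.55, adjusted p = 0.0205). PSMA5, an alpha ring subunit, measured 15.9, 18.9 and 18.7 against 25.8, 24.1 and 23.1 FPKM (-0.43, adjusted p = 0.0336). Same-numbered replicates deviated together in this comparison, and replicate 1 was the library that stood apart in both groups. When replicate number was fitted as a block, 1 member passed in place of 2, PSMA5 being lost. The count was 0 without PANC-1 EV replicate 1 or replicate 3 or PPCL-68 EV replicate 2, which left 8 to 10 members at an unadjusted limma p under 0.05. It was 1 without untreated replicate 1 or 2, PANC-1 EV replicate 2 or PPCL-68 EV replicate 3, 5 without residual medium replicate 3 and 16 without the 4 libraries that stood apart.

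The lines share no libraries, so calls can be set side by side. With PANC-1 EVs against residual medium, 16 of the 36 members tested in both lines were lower in both, against 8.28% of all 10483 genes tested in both, none was higher in both (8.82% of all genes) and none went in opposite directions (1.79%). With PPCL-68 EVs 15 were lower in both (14.9% of all genes), PSMD7 was higher in both (14.7%), and PSMB7 was higher in HPNE and lower in HPDE (2.59% in opposite directions). With residual medium against untreated, 10 were higher in both (3.34% of all genes). The EV and residual medium comparisons of a line share its residual medium libraries. With PANC-1 EVs against untreated, only PSMD3 was lower in both (6.84% of all genes) and only PSMD14 was higher in both (7.2%). With PPCL-68 EVs against untreated, 5 were higher in both (PSME2, PSMA5, PSMA7, PSMD14 and PSMD7), where 11.9% of all genes were, and 2 were lower in both (PSMD3 and PSMD6), where 12.4% were. PSMA3, PSMA4 and PSMD11 rose in HPNE and fell in HPDE, where 5.77% of all genes went in opposite directions.

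The difference between the lines was itself tested as an interaction over all 24 libraries. For PANC-1 EVs against residual medium 3 of 37 members passed, all with a larger fall in HPDE (21.2% of all genes, 8.65% higher and 12.5% lower in HPDE). They were PSMB2 (-0.45), PSMA3 (-0.36) and PSMC2 (-0.25). For PPCL-68 EVs 13 passed, 12 of them lower in HPDE (25.7% of all genes, 12.1% higher and 13.6% lower), and 8 of the 13 were core subunits. PSMA4, an alpha ring subunit, differed most clearly (-0.70 ± 0.0915, SE, adjusted p = 1.4e-05). It measured 42.2, 42.2 and 39.0 FPKM in residual medium and 50.2, 42.4 and 41.1 FPKM with PPCL-68 EVs in HPNE, where the groups overlapped, against 85.8, 86.0 and 85.2 and 59.9, 54.6 and 55.5 FPKM in HPDE, where they did not.

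For residual medium against untreated 13 members passed, all with a smaller rise in HPDE (38.1% of all genes, 21% higher and 17.1% lower). All 13 were regulatory, of 24 tested, and none of the 13 core members passed. PSMD2 (-0.72), PSMC3 (-0.62) and PSMD14 (-0.58) led. The PANC-1 EV count of 3 became 5 without PANC-1 EV replicate 1, residual medium replicate 2 or PPCL-68 EV replicate 1 of HPNE, and 13, of which 9 were higher in HPDE, without HPNE residual medium replicate 3. The residual medium count of 13 became 8 without HPNE residual medium replicate 1 or replicate 2, and 23 without replicate 3. Without the 4 HPNE libraries that stood apart the 3 counts were 21, 20 and 29.

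Core and regulatory subunits were compared by the mean log2(FPKM + 1) of the 13 core and 23 regulatory members tested in both lines, per library and with no test, since the members were chosen as a list. The core mean was above the regulatory mean by 0.29 ± 0.0943 in untreated HPNE, 0.16 ± 0.0328 with PANC-1 EVs, 0.27 ± 0.0890 with PPCL-68 EVs and 0.05 ± 0.156 in residual medium (SD, n = 3). In residual medium the HPNE libraries had -0.07, -0.0026 and 0.23. The low row of PSMA1 is part of the core mean, and without it they had 0.28, 0.33 and 0.51, with the core mean above the regulatory mean in all 3. The regulatory mean there was 5.49, 5.50 and 5.19, against 4.98, 4.95 and 5.05 in untreated cells, while the core mean went from 5.33, 5.30 and 5.23 to 5.42, 5.50 and 5.41. In HPNE residual medium 18 of 24 regulatory and 6 of 13 core members had risen, with median log2 differences of 0.41 and 0.24.

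In HPDE the order was the other way round. The core excess was 0.30 ± 0.0421 in residual medium, above 0.20 ± 0.00082 in untreated cells, 0.13 ± 0.0328 with PANC-1 EVs and 0.17 ± 0.0219 with PPCL-68 EVs (SD, n = 3). The residual medium libraries (0.34, 0.28 and 0.27) lay above all other HPDE libraries, which ranged from 0.11 to 0.20. With PANC-1 EVs 12 of 13 core members were lower than in residual medium (median -0.41), and of 23 regulatory members 17 were lower and 2 higher (median -0.33). Of all genes 35.1% were lower and 28.2% higher. With PPCL-68 EVs 10 of 13 core members were lower (median -0.49), and 17 regulatory members were lower and 3 higher (median -0.32). Here 36.4% of all genes were lower and 31.3% higher. Without the PSMA1 row the excess of the group means was 0.37 to 0.60 in the HPNE groups and 0.46 to 0.63 in the HPDE groups, with residual medium still the lowest group in HPNE and the highest in HPDE.

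**Figure D4:**
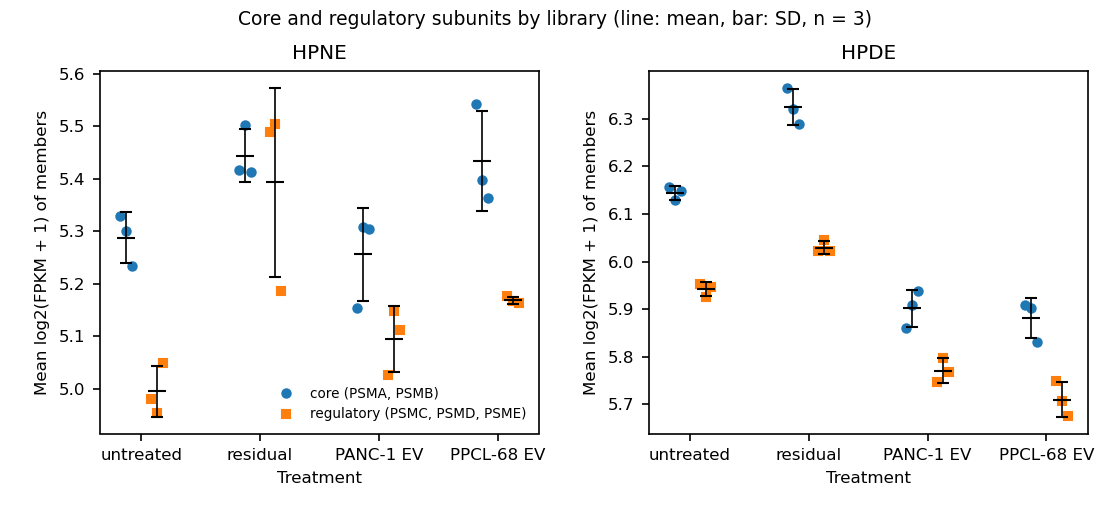
Mean log2(FPKM + 1) of the 13 core (circles) and 23 regulatory (squares) members in each library by treatment, HPNE left and HPDE right, with the mean and SD of each group (n = 3). In HPNE residual medium the core excess is smallest (-0.07, -0.0026 and 0.23, or 0.28, 0.33 and 0.51 without the low PSMA1 row, which is plotted as part of the core mean), and both classes lie lower with EVs than in residual medium in HPDE.

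Most regulators of subunit transcription rose with EVs in HPDE, where most subunits fell. Of 11 regulators 8 were higher and 1 lower with PANC-1 EVs, and 8 were higher and 1 lower with PPCL-68 EVs, the lower one each time being KEAP1, which holds NFE2L2 in check. Of all genes 28.2% were higher and 35.1% lower with PANC-1 EVs, and 31.3% higher and 36.4% lower with PPCL-68 EVs, which also holds for the lists that follow in HPDE. NFE2L1 went from 55.9 ± 1.42 FPKM in residual medium to 96.3 ± 2.16 with PANC-1 EVs and 89.7 ± 2.11 with PPCL-68 EVs (SD, n = 3; log2 differences of 0.77 and 0.67). In HPNE it rose with PPCL-68 EVs (0.86, from 80.0 ± 17.7 to 145 ± 24.5 FPKM) and did not pass with PANC-1 EVs (0.33, adjusted p = 0.125). In HPNE 3 of 11 regulators were higher with PANC-1 EVs (13.9% of all genes) and 9 with PPCL-68 EVs (20.3% of all genes), and none was lower. NFE2L1 is activated by processing of its protein, which mRNA does not measure.

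Of 13 tested assembly and associated genes in HPDE, 2 were higher and 2 lower with PANC-1 EVs, and 2 were higher and 8 lower with PPCL-68 EVs. The 4 of 13 called with PANC-1 EVs are a smaller share than the 63.3% of all genes. POMP, which assembles the core, fell by 0.70 and 0.55 on the log2 scale. SHFM1, which encodes the small lid subunit SEM1, fell by 0.91 and 0.87, from 23.7 ± 1.21 FPKM in residual medium to 12.2 ± 1.51 and 12.6 ± 1.78 FPKM (SD, n = 3). Of 16 ubiquitin supply and delivery genes, 5 were higher and 10 lower with PANC-1 EVs, and 6 were higher and 5 lower with PPCL-68 EVs. UBB, a polyubiquitin gene, fell by 1.24 and 0.90 and VCP, the ATPase that extracts ubiquitylated proteins, fell by 0.89 and 0.35. SQSTM1, the ubiquitin receptor of autophagy, rose by 1.40 and 2.34, from 67.0 ± 3.54 FPKM to 178 ± 8.88 and 344 ± 12.2 FPKM (SD, n = 3).

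In HPNE 24.2% of all genes passed with PANC-1 EVs and 39.9% with PPCL-68 EVs. Of the 13 assembly genes none was higher and 3 were lower with PANC-1 EVs, and 1 was higher and 3 lower with PPCL-68 EVs. Of the 16 ubiquitin genes 1 was higher and 3 lower, and 4 were higher and 4 lower. SQSTM1 rose by 1.08 and 1.62, and VCP fell by 0.70 and 0.58. In residual medium against untreated HPNE cells SQSTM1 fell by 0.77 while VCP rose by 0.36, beside the 24 subunit genes that rose.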

How the data were processed

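The authors deposited 1 table of FPKM values per library, with gene coordinates and lengths. Per the submitters' processing notes the tools were CASAVA, STAR, HTSeq and DESeq2 and the build was hg19. Versions, annotation and strand or overlap settings are not given in the sources used here. FPKM multiplied by gene length and library depth gave whole reads for 100% of values (tolerance 0.02 reads).

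Values were tested as log2(FPKM + 1) with limma 3.58.1 (R 4.3.3, trended variance), 12 libraries of a line in one fit and all 24 between lines. Genes with a mean of at least 1 FPKM were kept, and Benjamini-Hochberg adjusted p-values over all of them were called under 0.05. Fold changes of low genes are understated by the added 1. The method was tested on simulated data. No simulated library was made to stand apart, so that test does not cover the uneven HPNE groups. Python 3.11.15 served for summaries. Members and lists were chosen with earlier results of these data known. Named were, per comparison, up to 3 members with the largest rise and up to 3 with the largest fall among those called and not overlapping between groups (interactions: called only), PSMB5, PSMB6, PSMB7, PSMB10, PSME1 and PSME2, and the highest and lowest levels. Other members are named as context after their values were seen. PSMG2 was not tested, because its row did not pass the filter in either line.

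The labels give the groups the same replicate numbers, with no shared culture or day stated. Deviations of same-numbered libraries correlated above 0.1 in all 3 pairs only for PANC-1 against PPCL-68 EVs in HPNE (0.57, 0.29 and 0.50). Replicate 1 stood apart in both of these groups. The 3 correlations are not independent, since deviations were taken from the mean of 3 libraries. The alternatives were another pseudocount (0.1), no filter, size factors, the replicate block, limma voom on the recovered reads, only the 6 libraries compared, each library left out, the 4 separate HPNE libraries left out and, added after seeing the data, the core mean without PSMA1.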

Additional observations from a re-analysis of the deposited data

Results flagged for a closer look

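Differences between the lines under the same contrast were tested as an interaction with limma over all 24 libraries. Of 37 members, 3 passed with PANC-1 EVs against residual medium, 13 with PPCL-68 EVs against residual medium and 13 with residual medium against untreated. Of all genes 21.2%, 25.7% and 38.1% passed, a larger share than of the members except with PPCL-68 EVs. For PANC-1 EVs the members called were PSMB2 (-0.45), PSMA3 (-0.36) and PSMC2 (-0.25), each falling further in HPDE. The PSMA3 call was lost without HPDE PANC-1 EV replicate 1, and that of PSMC2 without HPDE PANC-1 EV replicate 2 or HPDE residual medium replicate 1. For PPCL-68 EVs the largest were PSMB10 (-1.01), PSMA4 (-0.70) and PSMB7 (-0.59), each with a lower difference in HPDE than in HPNE, and PSMD10 (0.28), with a higher one. PSMB7 was called higher in HPNE (0.28) and lower in HPDE (-0.32). PSMB10 lost its call under 18 of the alternatives and is the least settled of these. For residual medium the largest were PSMD2 (-0.72), PSMC3 (-0.62) and PSMD14 (-0.58), each rising less in HPDE.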

How the results depend on the processing

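Among the members named in a comparison, alternatives left 1604 values of called results on the same side of the threshold and took 142, of 28 results, below it with their direction kept. Among results not called, 10 values passed under an alternative and 13 changed sign. Those were PSMB7 with PANC-1 EVs against residual medium in HPNE (0.074 without PANC-1 EV replicate 1, 0.0042 and 0.041 without residual medium replicates 1 and 2, 0.027 without the 4 separate libraries, -0.051 to 0.074 over all single libraries left out), and PSMB10 there (-0.031 without residual medium replicate 1, up to 0.497 over all single libraries left out, 0.742 without the 4 separate libraries). In HPDE they were PSMB10 with PANC-1 EVs (0.0090 with size factors, 0.132 and 0.095 without PANC-1 EV replicate 2 and residual medium replicate 1, down to -0.103) and with PPCL-68 EVs (-0.030, -0.0020 and -0.037 without residual medium replicates 2 and 3 and PPCL-68 EV replicate 3, up to 0.156), PSME2 with PPCL-68 EVs (0.0052 with size factors) and PSME1 with residual medium (-0.0081 without residual medium replicate 1, up to 0.049).

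Counts of members called varied with the setting as follows, where shifts of over 1.5 times and smaller ones are listed together. The cause of the shifts was not tested. Without a filter the count was 1 for PANC-1 EVs against untreated in HPNE, 0 for PANC-1 against PPCL-68 EVs in HPNE (12 at an unadjusted limma p under 0.05) and 8 for residual medium in HPDE. Size factors gave 7 for PANC-1 EVs against untreated in HPNE and 21 for the interaction of residual medium. For residual medium against untreated in HPNE they moved the all-gene median from -0.05 to 0.06, the members' median to 0.45 and the count to 30. Only the 6 libraries compared gave 5, 12 and 1 for PANC-1 EVs against residual medium, PPCL-68 EVs against residual medium and PANC-1 against PPCL-68 EVs in HPNE. Leaving out the 4 separate HPNE libraries narrows the spread by construction. Without the 4 separate HPNE libraries, in the order of the next sentence, the HPNE counts were 30, 31, 21, 27, 35 and 16, and the interactions gave 21, 20 and 29. Leaving out 1 library gave 6 to 24 (PANC-1 EVs against residual medium), 12 to 25 (PPCL-68 EVs against residual medium), 0 to 7 (PANC-1 EVs against untreated), 9 to 15 (PPCL-68 EVs against untreated), 12 to 29 (residual medium against untreated) and 0 to 5 (PANC-1 against PPCL-68 EVs) in HPNE. The same order gave 30 to 32, 28 to 30, 26 to 27, 28 to 32, 6 to 19 and 18 to 21 in HPDE, 34 to 36 between lines, and 2 to 13, 10 to 16 and 8 to 23 for the interactions.

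With the replicate block the counts in that order were 13, 19, 2, 13, 22 and 1 in HPNE, 31, 30, 27, 29, 15 and 19 in HPDE, 36 between lines and 3, 12 and 13 for the interactions. Same-numbered libraries correlated by -0.43 to 0.45 on average. In HPNE the averages hid single pairs of both signs, as with PPCL-68 EVs against untreated (0.49, -0.37 and 0.49). Residual medium against untreated in HPNE gave -0.39, -0.39 and -0.51. Whether same-numbered libraries share a culture or day cannot be told from these values.

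The core excess was 0.208 in untreated HPDE with size factors and 0.173 with a pseudocount of 0.1, which gave 0.124 with PANC-1 EVs and 0.0055 in residual medium (from 0.050) in HPNE, and 0.139 with PPCL-68 EVs and 0.0986 with PANC-1 EVs in HPDE. Without PSMA1, an alternative added after seeing the data, it was 0.598 (untreated), 0.475 (PANC-1 EVs), 0.374 (residual medium) and 0.603 (PPCL-68 EVs) in HPNE and 0.530, 0.464, 0.629 and 0.507 in HPDE. Leaving out 1 library gave 0.265 to 0.348, 0.145 to 0.177, -0.038 to 0.112 and 0.215 to 0.298 in HPNE, and 0.202 to 0.203, 0.112 to 0.141, 0.271 to 0.309 and 0.158 to 0.178 in HPDE. Low read numbers limit PSMA1, PSMA2, PSMA6 and PSMD9, and PSMB10 to a lesser degree.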
